A study of Mus musculus with 6 samples.

Results

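A set of 159 weakly expressed genes was at least 8 times higher in bEND.3 cells treated with a GapmeR against the long non-coding RNA Gm39822 than in cells given a negative control GapmeR. Of the 49315 genes in the count table, 18234 were tested and 159 met the rule. It kept genes with at least 4 counts in both control samples, at least 5 CPM in each of the 4 GapmeR samples, and a mean CPM after GapmeR of at least 8 times the control mean. CPM is the count of a gene after the counts of a sample are scaled to a total of 1000000. The members were therefore chosen by the contrast between GapmeR and control, and their levels and fold changes are given as a description.

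The study asked which transcripts depend on Gm39822 in endothelial cells. bEND.3 is an immortalized mouse brain endothelial line, and a GapmeR is an antisense oligonucleotide with locked nucleic acid ends, and RNase H cuts the RNA paired with its DNA middle. The GapmeR group (4 samples) received the GapmeR to Gm39822 and the control group (2 samples) a negative control antisense GapmeR. Both were used at 100 nM, transfected with a Lipofectamine reagent, in cells with no other stated treatment. A single line and a single targeting oligonucleotide were used, so the loss of Gm39822 and any other action of that oligonucleotide cannot be told apart.

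Many members are known from tissues other than endothelium: sarcomere genes, motile cilium genes, plasma proteins made by the liver, hormones and their receptors. Ribosomal RNA depletion, used here, keeps RNA with or without a poly(A) tail, and a gene-level count takes any read on the exons of a gene, wherever that RNA began. RNA polymerase II normally runs past the cleavage and polyadenylation site of a gene before it is released, and the RNA made beyond that site is usually short-lived.

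Total counts lay between 30264086 and 37117934 in the GapmeR samples and were 29261988 and 34266811 in the controls. Gm39822 itself was lower in every GapmeR sample, with counts of 2, 1, 4 and 2 there against 61 and 56, and its log2 fold change was -4.82 (adjusted p = 8.82e-08 in edgeR's quasi-likelihood test). Endothelial markers summed to between 7570 and 8525 CPM after GapmeR and to 8801 and 9123 CPM in the controls. Macrophage markers summed to between 231 and 432 CPM after GapmeR, highest in GapmeR samples 3 and 4, and to 169 and 175 CPM in the controls. None of the 16 macrophage markers is a member, and their part in the results was not tested. With GapmeR samples 1 and 2 alone the rule found 159 genes, of which 157 are members. In bulk RNA, more cells that express a gene and more RNA per cell cannot be told apart.

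The promoters of the members with the highest ratios are shown first, because what the starts of the members share is described further on. Each line gives the 250 bases before the transcription start, from RefSeq on GRCm38.p6 (the same assembly as mm10), 5′ to 3′ on the strand of the gene. Of the 6 members with the highest ratios that have an entry, the 3 whose window ends right before the outermost annotated start of the gene are printed. Capitals mark matches on either strand to TATAAA of the TATA box, GGGCGG of the GC box, CCGGAAG of ETS factor sites, TGANTCA, which takes in the AP-1 site, TGACGTCA of the cyclic AMP response element, or CCAAT of the CCAAT box. A capital CCGCCC is the GC box read on the other strand. The windows are Cpm at chr10:117629250-117629499 (plus strand), Lsmem1 at chr12:40199316-40199565 (minus strand) and Apoa1 at chr9:46228380-46228629 (plus strand).
Cpm: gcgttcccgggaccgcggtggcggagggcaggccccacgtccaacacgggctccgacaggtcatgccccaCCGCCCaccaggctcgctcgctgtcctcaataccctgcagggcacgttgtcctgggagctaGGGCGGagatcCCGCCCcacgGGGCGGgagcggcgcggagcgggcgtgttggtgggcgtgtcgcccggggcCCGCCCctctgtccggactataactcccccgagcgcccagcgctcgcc
Lsmem1: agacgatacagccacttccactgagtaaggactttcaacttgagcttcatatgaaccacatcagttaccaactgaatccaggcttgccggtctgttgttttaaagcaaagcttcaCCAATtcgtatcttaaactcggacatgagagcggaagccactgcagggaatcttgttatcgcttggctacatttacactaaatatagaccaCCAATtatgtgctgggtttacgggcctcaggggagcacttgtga
Apoa1: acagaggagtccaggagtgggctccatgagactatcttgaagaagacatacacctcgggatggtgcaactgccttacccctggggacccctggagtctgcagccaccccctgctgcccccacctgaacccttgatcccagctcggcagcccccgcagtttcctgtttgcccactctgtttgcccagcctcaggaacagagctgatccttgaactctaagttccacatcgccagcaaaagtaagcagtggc

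The Cpm window held 5 matches to GGGCGG, which Sp1 binds, the Lsmem1 window held 2 matches to CCAAT, and the Apoa1 window held 0 matches to any of the 6 motifs. The 3 windows had 74.4%, 45.2% and 58.0% G and C bases. No motif was matched in all 3 windows.

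Before GapmeR the members were near the lower end of what was counted. Their control means lay between 0.127 and 6.59 CPM with a median of 0.604 CPM, and 112 of the 159 were under 1 CPM. After GapmeR the means lay between 5.35 and 109.8 CPM with a median of 12.5 CPM. Summed over all members, the level was 2890, 2913, 2936 and 3090 CPM in GapmeR samples 1 to 4 and 140 and 149 CPM in the controls, or 2957 ± 90.5 (SD, n = 4) against 145 ± 6.19 (SD, n = 2).

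**Figure D1:**
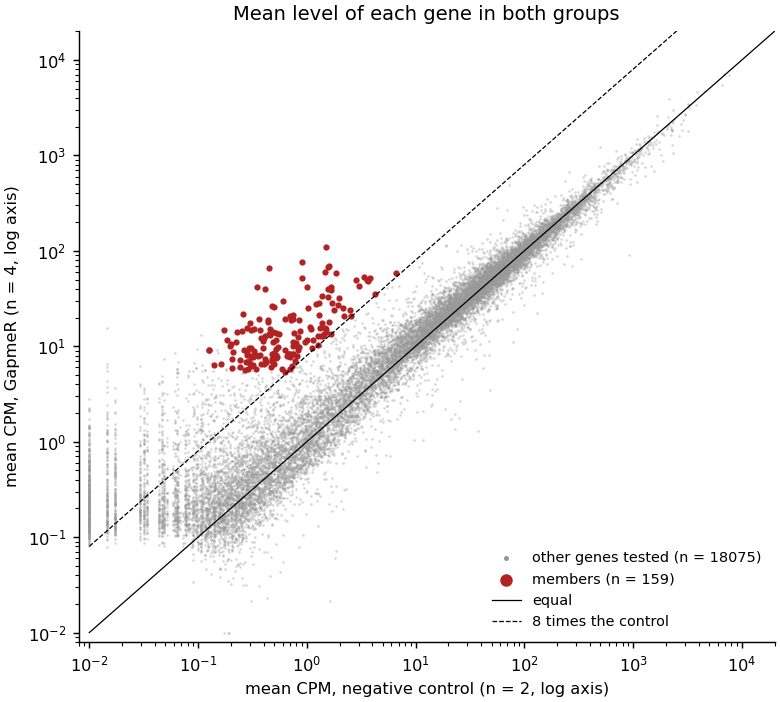
Mean CPM of each tested gene in the 2 control samples (x axis) and the 4 GapmeR samples (y axis), both on log axes, with genes under 0.01 CPM drawn at 0.01. The 159 members (red) lie above the dashed line of 8 times the control, with control means of 0.127 to 6.59 CPM, while the other genes (grey) spread around the line of equal levels.

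The ratio of means ran from 8.16 to 148 with a median of 21.3. It was at least 20 for 83 members and at least 50 for 21. All 159 had an adjusted p under 0.05 and were higher in edgeR's quasi-likelihood test, as were 25.4% of all genes tested, and nothing is read from that count because the rule used this contrast. Their fitted log2 fold changes ran from 2.86 to 7.03 with a median of 4.24, against a median of 0.03 over all genes tested. Scaling by library size alone put that last median at 0.17.

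The lowest GapmeR value exceeded the highest control value at least 5.94 times in every member, and all GapmeR samples lay above both controls in 41.9% of all genes tested. The coefficient of variation over the 4 GapmeR samples had a median of 8.07% in the members (1.78 to 25.3%) and of 6.84% in the 10022 tested genes with at least 5 CPM in each GapmeR sample. GapmeR sample 4 was the highest of the 4 for 75 members, sample 2 for 43, sample 3 for 27 and sample 1 for 14. The same rule with the groups exchanged found 12 genes. Its count limit then falls on the 4 GapmeR samples and its CPM limit on the 2 controls, so 12 and 159 are not like for like.

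The counts behind the control values are small. Of the members, 47 had under 10 counts in at least 1 control and 7 had exactly 4, the least the rule allowed, so ratios with such a denominator carry a wide counting error.

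Among the 11 members known from muscle, Ankrd2, a stretch-responsive ankyrin repeat protein of striated muscle, had the highest ratio of all members. It lies at chr19:42035917-42045111 of mm10 on the plus strand. After GapmeR its counts were 2197, 2270, 2083 and 2163, against 10 and 19 in the controls. This was 66.5 ± 3.82 CPM (SD, n = 4) against 0.448 ± 0.150 CPM (SD, n = 2), a ratio of 148, and the groups lay far apart.

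Atp2a1, the calcium pump of fast-twitch sarcoplasmic reticulum, had 473, 547, 374 and 477 counts against 9 and 5. Jph2, which holds the sarcoplasmic reticulum close to the T-tubule, had 349, 451, 361 and 353 counts against 4 and 8. Tcap, the titin cap protein, was at 20.7, 16.0, 19.8 and 19.6 CPM against 0.410 and 0.467 CPM. In all of these genes every GapmeR sample was well over every control, as in all members, which the rule chose on this contrast.

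Pygm, muscle glycogen phosphorylase, began higher, with 104 and 123 counts in the controls, and reached 1652, 1667, 1482 and 1694 counts, a ratio of 13.9. Myh11, the smooth muscle myosin heavy chain, was the only member in a marker list used here and had 182, 210, 184 and 189 counts against 10 and 8, a ratio of 20.3. The other muscle members (Myh7b, Mss51, Stac3, Popdc2 and Mamstr) had ratios between 15.6 and 29.2. Among muscle markers that are not members, Ckm, the muscle creatine kinase, had 19, 17, 24 and 17 counts against 0 and 0, and Myh3, the embryonic myosin heavy chain, had 7, 20, 14 and 8 against 0 and 0. Of the muscle regulators, Myog had 0 counts in all 6 samples and Myod1 had 1 count in 1 GapmeR sample and 1 in a control.

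The 17 members known from cilia, sperm and meiosis had ratios of 8.79 to 85.7. Agbl2, a carboxypeptidase that trims tubulin, had 432, 595, 399 and 529 counts against 5 and 6, a ratio of 85.7. Dnah10, an inner-arm heavy chain of axonemal dynein, had 1776, 2194, 1657 and 2188 counts against 40 and 53. In CPM, GapmeR sample 4 was the highest for Dnah10, at 70.4 against 53.7, 59.1 and 54.8 in the other GapmeR samples.

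Ttll3, a tubulin glycylase, had the highest control level of all members, with 178 and 243 counts, and 1889, 2141, 1735 and 1847 counts after GapmeR. The radial spoke gene Rsph6a, at 26.2, 26.9, 26.2 and 24.6 CPM against 0.478 and 0.525 CPM, was nearly equal in the 4 GapmeR samples. The meiotic gene Msh4 was at 7.65, 8.73, 7.10 and 8.21 CPM against 0.410 and 0.204 CPM. Acr and Acrbp, the protease of the acrosome and the protein that binds its precursor, had ratios of 22.6 and 13.9.

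Among the 11 members known from epithelium, Avil, an actin regulator of the villin family, had 2490, 2974, 2291 and 2304 counts against 27 and 30, a ratio of 84.9. Lgals4, a galectin of the gut epithelium, had 490, 529, 414 and 490 counts against 9 and 7. Sfn, the 14-3-3 protein sigma of stratified epithelium, was at 31.3, 23.4, 34.0 and 26.1 CPM against 1.54 and 1.87 CPM, higher in GapmeR samples 1 and 3 than in 2 and 4. Ephx3, Amn, Evpl, Dnase1l2, Myo1a, Cldn15, Marveld2 and Upk1a completed the group, with ratios of 11.7 to 55.2.

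The 10 members of the liver, plasma and lipid group included Apoa1, the main protein of high-density lipoprotein, with 707, 789, 683 and 654 counts against 10 and 6, a ratio of 83.4. Serpinf2, the inhibitor of plasmin, had 498, 502, 469 and 585 counts against 8 and 10. Lcat, which esterifies cholesterol on lipoproteins, had 1665, 1671, 1473 and 1500 counts against 97 and 135. Of these 3 secreted proteins, Lcat began highest in the controls, at 3.63 CPM, more than 10 times Apoa1 (0.258 CPM) and Serpinf2 (0.283 CPM). Each was above both controls in every GapmeR sample, as was every member, chosen on this contrast, and as were 41.9% of all genes tested.

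The group known from blood and immune cells had 12 members. Gp5, a subunit of the platelet receptor for von Willebrand factor, had 1695, 1770, 1675 and 1731 counts against 23 and 35, a ratio of 58.1. Unc13d, which primes cytotoxic granules for release, was at 43.5, 39.7, 41.4 and 43.7 CPM against 1.61 and 1.75 CPM, and Fermt3, the kindlin of blood cells, at 47.2, 47.1, 48.2 and 53.6 CPM against 3.11 and 2.54 CPM. In these 3 genes, as in all members by their selection, every GapmeR sample was above both controls. The T cell adaptor Lat and the thromboxane receptor Tbxa2r had ratios of 30.2 and 28.5.

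Among the 12 members known from nerve, sense organs and endocrine tissue, Slc5a5, the iodide carrier of the thyroid, had 1877, 2003, 1750 and 2109 counts against 57 and 61. Amh, the anti-Müllerian hormone, had 1684, 1968, 1783 and 1610 counts against 91 and 123, and its receptor Amhr2 was at 7.56, 7.30, 8.10 and 7.73 CPM against 0.342 and 0.292 CPM. Gnat1, the rod transducin, Prph, the intermediate filament of peripheral neurons, and Adra2a, an adrenergic receptor, had ratios between 26.6 and 30.1.

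The 9 matrix, bone and tendon members had ratios of 11.9 to 32.2. Ctsk, the collagen-degrading protease of osteoclasts, was at 8.59, 10.3, 8.82 and 10.2 CPM against 0.239 and 0.350 CPM. Scx, a transcription factor of tendon, was nearly the same in the 4 GapmeR samples, at 6.17, 6.20, 6.05 and 6.34 CPM against 0.410 and 0.204 CPM.

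Of the 12 members grouped as other enzymes, Cpm, a membrane carboxypeptidase, had 1317, 1797, 1085 and 1328 counts against 6 and 17 and the second highest ratio of all members, 119. B3galt4, a galactosyltransferase of ganglioside synthesis, had 2201, 2465, 2204 and 2255 counts against 45 and 56. Pla2g4f, a cytosolic phospholipase, had 325, 349, 253 and 289 counts against 4 and 4, so its ratio of 72.8 rests on 8 control counts. Aoc2 and Aoc3 are neighbouring amine oxidases, 0.648 kb apart on 1 strand, and differed in their ratios, at 8.25 for Aoc2 (134 and 135 control counts) and 21.9 for Aoc3.

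The highest level after GapmeR among the remaining 48 protein-coding members, and among all members, was that of Sh3d21, an SH3 domain protein, with 3514, 3798, 3459 and 3608 counts against 44 and 51. Lsmem1, a single-pass membrane protein, had 1420, 1575, 1138 and 1162 counts against 15 and 11, a ratio of 96.2. Fam83e had 2235, 2528, 1971 and 2166 counts against 43 and 56. Rnf225 had 1726, 1868, 1648 and 1622 counts against 115 and 129, and with a ratio of 13.6 stood lower in this order because it began higher. Ubap1l had 296, 348, 267 and 290 counts against 4 and 4. Olfml3, an extracellular matrix protein, was at 18.9, 18.6 and 19.2 CPM in GapmeR samples 1, 3 and 4 but at 14.1 CPM in sample 2, against 0.342 and 0.263 CPM.

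A further 17 members had no protein-coding entry in the GENCODE vM39 annotation, and most of them are non-coding genes or pseudogenes. Their levels were 5.60 to 19.3 CPM after GapmeR and their ratios 9.02 to 34.8. Gm7972 had the highest of these ratios and Gm11427, an unprocessed pseudogene, was at 20.8, 20.1, 17.7 and 18.6 CPM against 0.923 and 0.554 CPM. Reads on pseudogenes and on near-identical gene copies may be split between them by the counting, so these values are less certain. The groups were named from known functions of the genes after their values had been seen, and no group was tested.

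**Figure D2:**
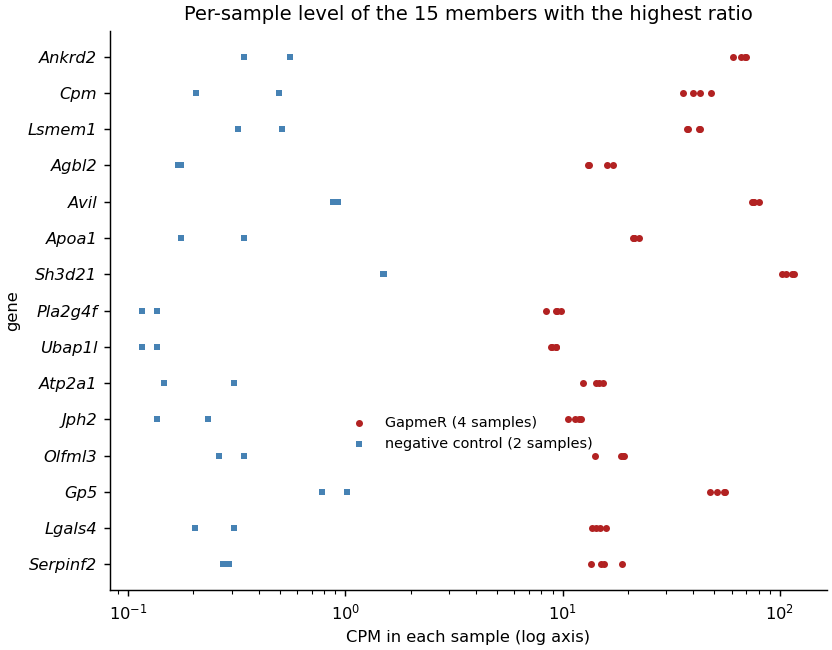
CPM on a log axis in each of the 4 GapmeR samples (red circles) and 2 control samples (blue squares) for the 15 members with the highest ratio, from Ankrd2 (148) downwards. In each gene all GapmeR samples lie to the right of both controls with no overlap, as in every member, since the rule chose them on this contrast.

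At the limit of the rule, the members with the lowest ratios were Cdc42bpg (8.16, with 645, 837, 584 and 703 counts against 72 and 92) and Kcnj14 (8.16, with 296, 411, 315 and 342 counts against 35 and 46). The nearest genes outside were Gpt at 7.87 and ENSMUSG00000094114 at 7.67. By the lowest GapmeR level, Prph (5.04 CPM) and Ccdc141 (5.06 CPM) were just inside, and Fgf22 and Hkdc1 (both 4.93 CPM) just outside. A further 84 genes missed only the limit of 5 CPM and 27 only the limit of 4 control counts, among them Tecta and Gm11706, each with 3 and 3 control counts.

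What the members shared apart from their levels was where they lie. Gene positions for this came from GENCODE vM39 on GRCm39 through the Ensembl identifiers, and 158 of the members and 17965 of the genes tested had one. Of the 158, 132 (83.5%) had a tested gene on the same strand that ends within 10 kb upstream of their start. The share was 23.3% over all genes tested and 18.6% over 5967 weakly expressed genes that are not members, defined as those with at least 4 counts in both controls and a control mean no higher than that of the highest member. The distance to the nearest such upstream gene had a median of 2210 bp for members, 69590 bp for the other weakly expressed genes and 49768 bp for all genes tested.

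The other orientations differed less. A gene on the opposite strand that begins within 10 kb upstream was found for 13.3% of members, 11.7% of the other weakly expressed genes and 13.4% of all genes. A gene on the same strand that begins within 10 kb downstream was found for 31.6%, 17.9% and 23.3%, and one on the opposite strand that ends within 10 kb downstream for 36.7%, 15.8% and 19.5%. Members had a median of 3 tested gene starts within 50 kb, against 1 for the other weakly expressed genes and 2 for all genes. These shares were not tested, since genes are not replicates of the treatment and neighbours are counted more than once.

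**Figure D3:**
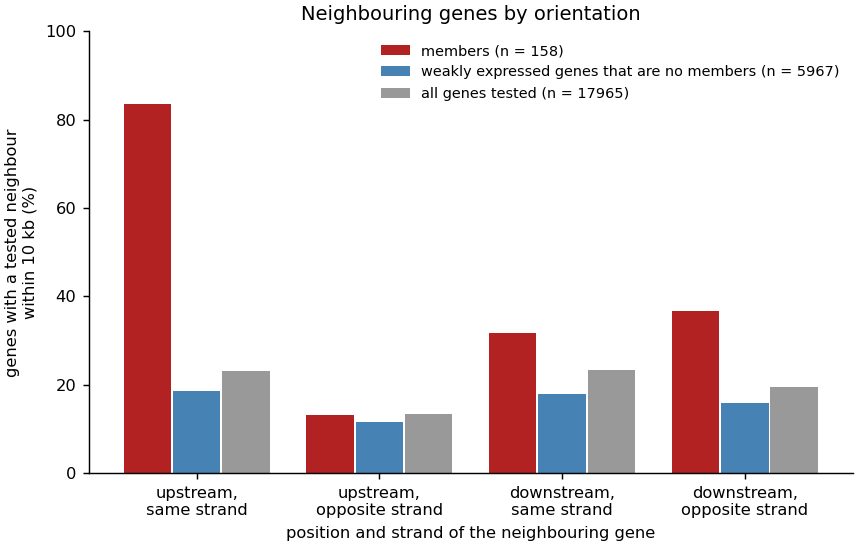
Share of genes (y axis, percent, from 0) that have a tested neighbour within 10 kb in each of 4 orientations (x axis), for 158 members (red), 5967 other weakly expressed genes (blue) and all 17965 genes with a position (grey). The members stand out most for an upstream gene on the same strand, at 83.5% against 18.6% and 23.3%.

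For 119 members, or 75.3%, the upstream gene within 10 kb had at least 10 CPM in the controls, against 10.1% of the other weakly expressed genes and 13.8% of all genes. Leaving out neighbours that are themselves members, 131 pairs of a member and an upstream gene were formed, with 130 distinct upstream genes. The gap between the end of the upstream gene and the start of the member had a median of 1.78 kb and was under 1 kb in 45 pairs. The upstream genes had a control median of 86.8 CPM.

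The upstream genes themselves moved little. Of the 130, 36 (27.7%) were higher and 37 (28.5%) lower at an adjusted p under 0.05 in edgeR's quasi-likelihood test, against 25.4% higher and 20% lower of all genes tested, and 57 did not pass. Scaling by library size alone gave 51 higher and 15 lower, and without control 2 there were 25 higher and 15 lower. Their median log2 fold change was -0.01 and 112 were within 1.5-fold of the control. In all but 1 of the 131 pairs the member had the larger log2 fold change, by a median of 4.16, and in 123 pairs by at least 2. The members' side of this difference was fixed by the rule, so the sizes are a description.

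Ubtd1, a ubiquitin-like domain gene that ends 1.186 kb upstream of Ankrd2, had 6283, 7287, 6039 and 6299 counts after GapmeR and 5433 and 5955 in the controls. It did not pass edgeR's test (log2 fold change -0.01 with a standard error of 0.07, adjusted p = 0.886). Ifrd1, 1.485 kb upstream of Lsmem1, did not pass either (0.23 with a standard error of 0.09, adjusted p = 0.0502 in edgeR). Ctdsp2, a phosphatase 0.734 kb upstream of Avil, had 6668, 6455, 5885 and 5922 counts against 6294 and 7257. It was lower by edgeR's test (log2 fold change -0.31 with a standard error of 0.08, adjusted p = 0.00357), while Avil was 84.9 times higher.

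Sik3, a kinase gene 4.386 kb upstream of Apoa1, and Thrap3, a splicing factor gene 0.587 kb upstream of Sh3d21, had log2 fold changes of 0.20 and 0.36 (standard error 0.08 each, adjusted p = 0.0452 and 0.00126 in edgeR). Fnbp4, 1.671 kb upstream of Agbl2, had 2115, 2825, 1933 and 2651 counts against 1194 and 1469, a log2 fold change of 0.64. The 6 members behind these upstream genes had ratios of 73.4 to 148.

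Some members lie behind ribosomal protein genes, which are among the most counted genes of a cell. B3galt4 begins 0.149 kb past Rps18 (892 CPM in the controls) and Fam83e 0.376 kb past Rpl18 (1212 CPM). The log2 fold changes of these upstream genes were -0.13 and -0.16, and those of the members 5.30 and 5.29. For B3galt4 and Fam83e, reads from the opposite strand are a limit that is given below. Per kilobase of exon, Fam83e was at 0.146% of the level of Rpl18 in the controls and at 6.42% after GapmeR.

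Over all pairs, the level of a member per kilobase of exon had a median of 1.13% of that of its upstream gene in the controls and 35.6% after GapmeR. It was below 10% after GapmeR in 33 pairs and above the upstream gene in 19. Gp5, for example, was at 6.38% of Atp13a3 in the controls and at 254.6% after GapmeR, and Sh3d21 at 2.68% and 138.8% of Thrap3. Within the members, the gap and the log2 fold change showed no rank relation, with Spearman's rho 0.00319 over the 131 pairs, some of which lie in 1 stretch of the genome.

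**Figure D4:**
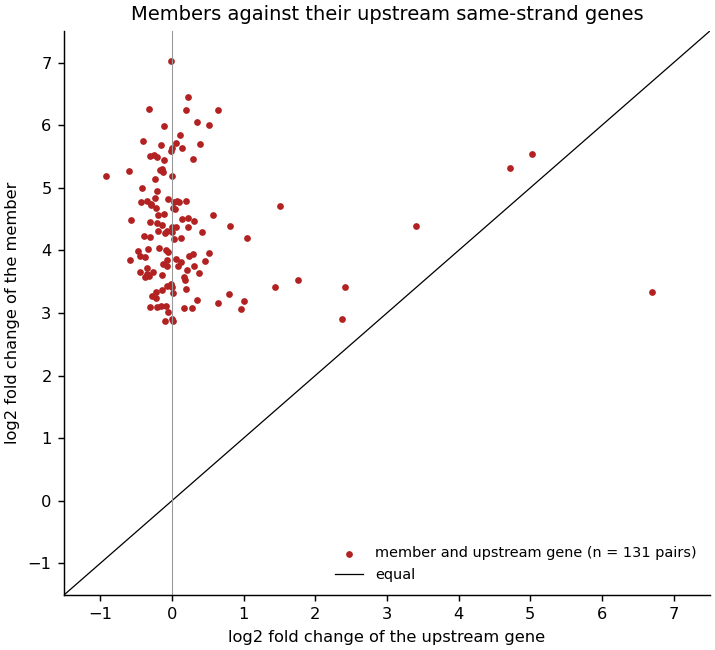
Log2 fold change of the upstream same-strand gene (x axis) and of the member (y axis) for 131 pairs, with the line of equal change. Most upstream genes lie near 0 (median -0.01) while the members of these pairs, chosen by this contrast, lie between 2.87 and 7.03.

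In 11 pairs the upstream gene was itself more than 2-fold higher. The largest was Chrna10, upstream of Art5, at 0.107 CPM in the controls and 13.1 CPM after GapmeR, a log2 fold change of 6.70 and the only one above that of its member. Next came Gm37986, upstream of Hhipl2, with a log2 fold change of 5.02. It had 0 and 1 control counts and was tested because of its GapmeR counts alone. Slc25a34, upstream of Tmem82, and Sult2b1, upstream of Spaca4, were also weakly counted in the controls (0.151 and 0.195 CPM) and had log2 fold changes of 4.72 and 3.40. For Sult2b1 and Spaca4, reads from the opposite strand are a limit that is given below. Snhg15, a host gene of small nucleolar RNA upstream of Myo1g, had a log2 fold change of 2.42.

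In 2 of the 132 cases the nearest upstream gene is itself a member, on the same strand. 4933411K16Rik begins 7.135 kb past Ankrd2, and Aoc3 0.648 kb past Aoc2, which in turn begins 0.076 kb past Psme3, with a log2 fold change of 0.00 for Psme3. Along that last stretch the ratios were 8.25 for Aoc2 and 21.9 for Aoc3, with 35.0, 33.0, 35.6 and 37.0 CPM for Aoc2 and 17.9, 16.4, 18.8 and 21.5 CPM for Aoc3 after GapmeR.

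The relation to distance was also seen in genes that the rule left out. Among these are genes with a ratio of at least 8 that missed only the limit of 5 CPM, of which the table held 84. The 6108 weakly expressed genes with an upstream gene on the same strand, members included, were divided by the gap. Where the upstream gene had at least 10 CPM in the controls, members made up 24.3% of those under 1 kb away, 17.3% at 1 to 5 kb, 9.09% at 5 to 10 kb, 1.07% at 10 to 50 kb and 0.424% beyond 50 kb. Without the members, the median log2 fold change of the remaining genes in these bins was 1.09, 0.83, 0.45, 0.16 and -0.06. Removing the members takes out the highest values, so these medians are lower than those over all genes of the bins, which were 1.70, 1.30, 0.54, 0.18 and -0.06.

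Where the upstream gene was under 10 CPM, members made up 4.50%, 2.25%, 1.59%, 0.817% and 0.305% of the same bins. The medians without members were 0.19, 0.20, 0.24, 0.05 and -0.13. The log2 fold change of weakly expressed genes was thus lower with distance mainly behind well counted genes. Bins share neighbours, and no test was made across them.

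**Figure D5:**
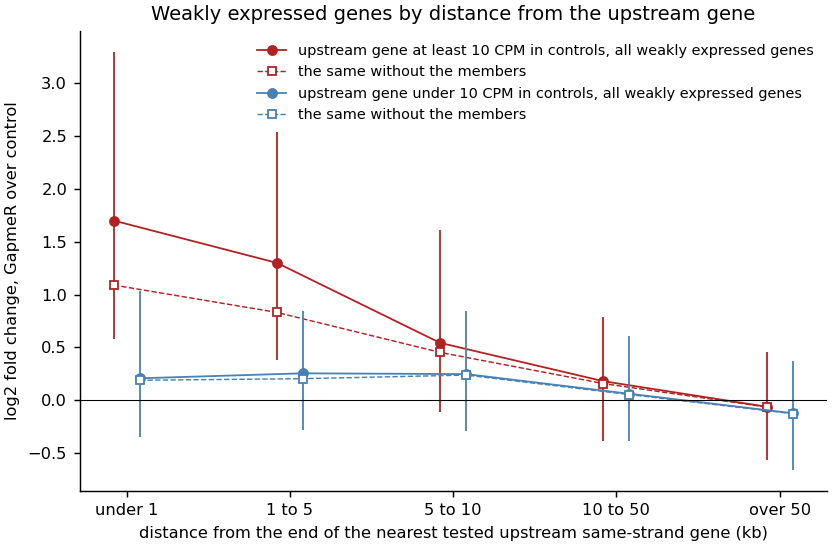
Median log2 fold change (y axis) of weakly expressed genes by distance in kb from the end of the nearest tested same-strand upstream gene (x axis), for upstream genes of at least 10 CPM (red) and under 10 CPM (blue) in the controls. Filled circles with bars from the lower to the upper quartile include the members and open squares leave them out, and in red the open squares go from 1.09 under 1 kb to -0.06 beyond 50 kb.

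The 26 members with a position but without an upstream gene within 10 kb fell into 3 classes. In 9, the start lies inside another tested gene of the same strand, as for Ttll3 in Arpc4, Popdc2 in Cox17, Msantd1 in Htt, the Huntington disease gene, and Eid3 in Txnrd1. Exons of such genes can overlap, and how the authors' counting shared those reads is not given in the sources used here. In 6, a gene on the opposite strand ends within 10 kb past the end of the member, as for Cpm, whose end faces that of Mdm2 at 1523 bp, Spon1 with Rras2 at 3407 bp and Derl3 with Smarcb1 at 827 bp.

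Without a strand setting, reads from the opposite strand cannot be told apart from those of the member, and Cpm carries this limit with the second highest ratio of the set. It can hold for all 58 members (36.7%) with an opposite-strand gene that ends within 10 kb past their end. Fam83e and B3galt4 are among them, and the end of Wdr46 lies 201 bp from that of B3galt4. Spaca4 carries this limit too, since it lies wholly inside Fam83e, a member on the opposite strand. After GapmeR, Spaca4 was at 9.50 CPM and Fam83e at 67.6 CPM. The end of Sult2b1, the gene upstream of Spaca4, lies 491 bp from that of Fam83e, so its values have the same limit. The remaining 11, among them Myo1h, Capn12, Myh7b, Prph, Spag4, Adh7 and Pik3cd, had no such neighbour among the tested genes, and their ratios ran from 8.17 for Plppr3 to 46.9 for Myo1h. Genes of the opposite strand whose end overlaps the end of a member were not counted as such neighbours. The strand limit can therefore apply to these members too. Capn12 lies 39.566 kb past Lgals4, another member, and Gm11427 16.758 kb past AI662270.

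Members were protein-coding more often than the other weakly expressed genes, at 89.9% against 67.6%, and 81.4% over all genes tested. There were 142 protein-coding members, 8 long non-coding RNAs and 7 pseudogenes. Their genes were shorter, with a median span of 9.47 kb against 16.1 kb for the other weakly expressed genes and 19.9 kb for all genes tested. The median number of exon blocks was 8 in members and in all genes, and 18 members had a single one. Their transcripts had a median of 54.7% G and C bases, against 49.6% over all genes tested.

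Promoter windows of the 250 bases before the start were found for 111 of the 159 members. Some windows do not end at the outermost annotated start of the gene, as for Ankrd2, Agbl2 and Avil. Such windows were kept in the values below. CpG-rich promoters are usual for broadly expressed genes, while CpG-poor ones are common in tissue-specific genes. The median ratio of observed to predicted CpG was 0.324 in members, 0.598 in 3447 other weakly expressed genes and 0.697 in 12109 genes tested. GGGCGG was present in 36.0% of member windows, 49.2% of those of the other weakly expressed genes and 56.1% of all. CCGGAAG was present in 5.41%, 8.85% and 12.6%.

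The remaining motifs were present in similar shares. TATAAA was found in 6.31% of member windows and 6.99% of all, CCAAT in 35.1% and 35.8%, TGANTCA in 6.31% and 4.65%, and TGACGTCA in 1.80% and 2.59%. Both strands were searched, no motif contains another, and matches to different motifs can overlap at their ends. A match is only these letters in this window.

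The members lie on many chromosomes, with 16 each on chromosomes 7 and 11. As a share of tested genes, chromosomes 19 (1.89%) and 10 (1.70%) had the most members.

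Genes of the same families moved in both directions. In 49 families named by shared symbol stems, 475 other genes were tested, with a median log2 fold change of 0.08. Of these, 152 (32.0%) were higher and 94 (19.8%) lower by edgeR, against 25.4% and 20% of all genes tested. The stems are shared names only, and put Cdc42bpg with Cdc6 and Unc13d with Unc5a. Some of the higher genes, such as Adam18 and Lrrc10 with 0 counts in both controls, were tested because of their GapmeR counts alone. Among 39 other Ankrd genes 17 were higher and 2 lower, with a median of 0.28, and among 9 other Dnah genes 4 were higher and 1 lower, with a median of 0.61. Of 35 other Kif genes 20 were higher and 6 lower, and of 18 other Adam genes 10 were higher and 4 lower. Of the 3 other Jph genes, 0 were higher and 1 was lower, and of the 6 other Lgals genes 0 were higher and 2 lower by edgeR. Single family genes outside the rule were as much higher as members, such as Myo15, an unconventional myosin of the inner ear, with 261, 343, 288 and 328 counts against 4 and 2. The members had been chosen for being higher, so no contrast with their families is drawn.

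Marker lists of the tissues that the members recall moved in part. Of the mural and muscle markers, 10 were tested, of which 4 were higher and 0 lower, and the log2 fold change had a median of 1.37. Their summed level was 10.6 to 16.1 CPM after GapmeR and 2.63 to 2.80 CPM in the controls, and Myh11, a member, made up 5.83 CPM of the former. Of the epithelial markers 10 were tested, with 6 higher and 1 lower and a median of 2.37, and they summed to 10.7 to 12.3 CPM against 1.98 CPM in each control. Grhl2, an epithelial transcription factor, contributed 6.22 CPM of this, while the defining markers Epcam and Cdh1 had at most 2 counts in any sample. The test filter of 5 counts in 2 samples can be met by GapmeR samples alone, which favours higher calls. The higher genes Ovol1, Elf3, Krt8, Cldn4 and Cldn7, with at most 4 counts in a control, entered this way. So did Ckm and Myh3 among the muscle markers, and no direction is read from these counts and medians.

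Of the germ cell markers 4 of 15 were tested and 3 were higher, with sums of 2.86 to 3.21 CPM against 0.410 to 0.846 CPM, and Mael, Tnp1 and Spata19 had 0 counts in all samples. The 3 higher genes, Sycp1, Piwil2 and Prm1, did not reach 5 counts in both controls and were tested because of their GapmeR counts. Neuron and neuroendocrine markers went the other way, with 3 of 30 higher and 18 lower and a median of -0.76. Endothelial markers had 2 of 18 higher and 9 lower, with a median of -0.22. Macrophage markers had 4 of 16 higher and 0 lower, with a median of 1.09, and p53 targets 3 of 24 higher and 3 lower, with a median of 0.05. All these calls are from edgeR's quasi-likelihood test, in which 25.4% of all genes were higher and 20% lower. Over all lists, 25 genes were higher and 31 lower, and 36 and 21 with scaling by library size alone.

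Whether the reads on the members began at their own promoters or farther upstream was not tested, since the table holds 1 count per gene.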

How the data were processed

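RNA-seq of bEND.3 cells was analysed as read counts per Ensembl gene, which the authors deposited as raw whole numbers, neither normalized nor filtered. Paired reads came from libraries depleted of ribosomal RNA, and the authors used the bcbio-nextgen pipeline with alignment to mm10 by STAR. The submitters' processing notes name Trimmomatic 0.36, STAR 2.5.2b and Subread 1.5.2. Neither the strand setting nor the Ensembl release is given in the sources used here. Of the columns of per-sample counts, 1 matched no sample and was not used. The paper gives 4 samples per group, and 2 controls were analysed here. The labels do not say whether samples came from separate cultures, so p-values measure only the spread between these samples. The chi-square of replicate counts per degree of freedom ranged from 5.41 to 25.2, above sampling noise in every pair.

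Genes that reached 5 counts in 2 or more samples were tested with the quasi-likelihood test of edgeR 4.0.16 (TMM, robust dispersions, Benjamini-Hochberg adjustment). The authors used DESeq2's Wald test, run here as an alternative with DESeq2 1.42.0, as was limma-voom (limma 3.58.1). The functions were tested on simulated data. CPM in the text is not TMM-scaled, SDs are between samples, and log2 fold changes are from edgeR. An exact permutation test of 4 samples against 2 cannot go below p = 0.0667.

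Some results are not reported here. The members, the lists of genes and the functional groups were chosen with earlier results of these data known. Named genes are the 15 members with the highest ratio, the 8 highest after GapmeR, the 6 highest in the controls, members of a marker list, 2 on each side of the limits, upstream genes of named members, up to 4 genes per family, and further members by function. Neighbours were taken among tested genes with positions in GENCODE vM39 (GRCm39), and printed coordinates from RefSeq GRCm38.p6, which held 155 members. The 7 lists held endothelial, macrophage, neuron, epithelial, mural and muscle, and germ cell markers and p53 targets. Same-numbered samples were not paired, since their deviations correlated at -0.06 and 0.12 over 10922 genes.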

Additional observations from a re-analysis of the deposited data

Results flagged for a closer look

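Of 30 sets of 4 GapmeR values examined, 1 had a sample far from the other 3. Olfml3 was at 14.09 CPM in GapmeR sample 2 and at 18.57 to 19.18 CPM in the others, all above both controls. About 1 set in 20 is expected to stand out by chance.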

How the results depend on the processing

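The number of members was 159 and lay within 1.5 times under each alternative run: 147 with TMM or DESeq2 scaling of CPM, 190 and 125 with a ratio of at least 6 or 12, 112 with at least 10 control counts, 217 with at least 2 CPM, and 156 to 170 with a sample left out. The share with an upstream gene within 10 kb was 77.3 to 86.3% in these sets. A set from GapmeR samples 1 and 2 alone, added after seeing the data, had 82.8%. The genes called in the whole table numbered 8268, and 5238 to 8776 with a sample left out, lowest without control 2. Higher genes made up 55.9% of calls, and 74.1% with scaling by library size alone.

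All members tested were called higher under every alternative fit that kept both controls, 112 of them where at least 10 counts were required in every sample. Nothing is read from this, since the rule chose the members on the same contrast. Of all genes tested, 25.4% were called higher by edgeR and 23% by DESeq2. The members' median log2 fold change of 4.24 was 3.82 with at least 10 counts in every sample, 4.38 with library size alone and 4.18 to 4.27 with a sample left out. Of the upstream genes, 37 were lower, 15 with library size alone and 15 to 40 with a sample left out (22 without control 1 and 15 without control 2). List genes called higher numbered 25, and 14 with at least 10 counts in every sample, a filter that tests fewer genes. With library size alone, 36 list genes were higher and 21 lower. List genes called lower numbered 31, and 15 to 37 with a sample left out (18 without control 1 and 15 without control 2). A fit with a replicate block called 7962 genes, 159 members among them. Leaving out a control leaves 1, which is assumed to vary like the GapmeR samples. The causes were not tested. Control counts under 10, in 47 members, limit the precision of the ratios, and 2 controls limit every test.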
